A study of Mus musculus with 8 samples.

Results

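Complement components and receptors were examined in RNA-seq libraries of right cerebral cortex from 8 mice, of which 4 had undergone sham surgery (Sham) and 4 bilateral carotid artery stenosis (BCAS). The 9 genes, of 54752 genes counted, were chosen by name: C1qa, C1qb and C1qc, which encode the chains of the recognition molecule C1q, the cascade components C3, C4b and Cfb, the receptors C3ar1 and C5ar1, and the inhibitor Serping1. All 9 were found in the count tables. All mice were male C57BL/6 mice (C57BL/6J in the methods) of wild-type genotype, 14 weeks old, and the cortex was taken 3 weeks after surgery. In BCAS mice a microcoil was wrapped around each common carotid artery, with the narrower coil on the right, and the BCAS group holds only mice that lived through the operation. Sham mice had the same surgery without coils. Each library came from 1 mouse.

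Complement is a cascade of plasma and tissue proteins that marks surfaces for removal. C1q binds its target and, through the proteases C1r and C1s, leads to the cleavage of C4 and C2, which together cleave C3, whereas factor B amplifies C3 cleavage in the alternative pathway. The fragments C3a and C5a signal through the receptors encoded by C3ar1 and C5ar1, and C1 inhibitor, the product of Serping1, blocks C1r and C1s. In the brain, microglia are known as the main source of C1q, reactive astrocytes make C3 and C4, and complement deposited on synapses takes part in their removal by microglia.

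The libraries held 16759364 to 21794435 counts, and 3 counts corresponded to 0.132 to 0.187 CPM (counts per 1000000 counts), which is the limit that a count of 0 leaves for a library through counting error alone. In all, 17136 genes had enough counts for the quasi-likelihood test of edgeR. A gene was called where its p, adjusted by Benjamini and Hochberg's method, was under 0.05 and its log2 fold change over 1 in either direction. These thresholds were also those of the study. At these thresholds 11.0% of the tested genes were called higher and 1.28% were called lower in BCAS mice. Because whole cortex was sequenced, a change in the number of cells of a type cannot be told apart from a change in the RNA each cell holds. In both groups the cortical neuron markers were abundant, with a summed level of 8622 to 10844 CPM in Sham and 3143 to 7305 CPM in BCAS mice. Choroid plexus markers reached 773 CPM in Sham mouse 3 against 14.8 to 50.1 CPM in the other Sham mice.

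Enough counts for the test were found in 8 members, and these 8 were called higher in BCAS mice, beside the 11.0% of all tested genes called in that direction. Their log2 fold changes ran from 3.18 for Serping1 to 8.04 for C3, with a median of 4.32, whereas the median over all tested genes was -0.01 and the 99th percentile 4.17. In each of the 8 genes, the lowest BCAS mouse lay above the highest Sham mouse, which was so for 18.5% of all tested genes. Cfb was the member left untested. C3 and C5ar1 had fewer than 10 counts in at least 1 Sham mouse and entered the test through the BCAS group. With at least 10 counts required in every library, 6 members were tested and called. In all 9 members, BCAS mouse 1 had the highest and BCAS mouse 2 the lowest level among the BCAS mice.

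**Figure D1:**
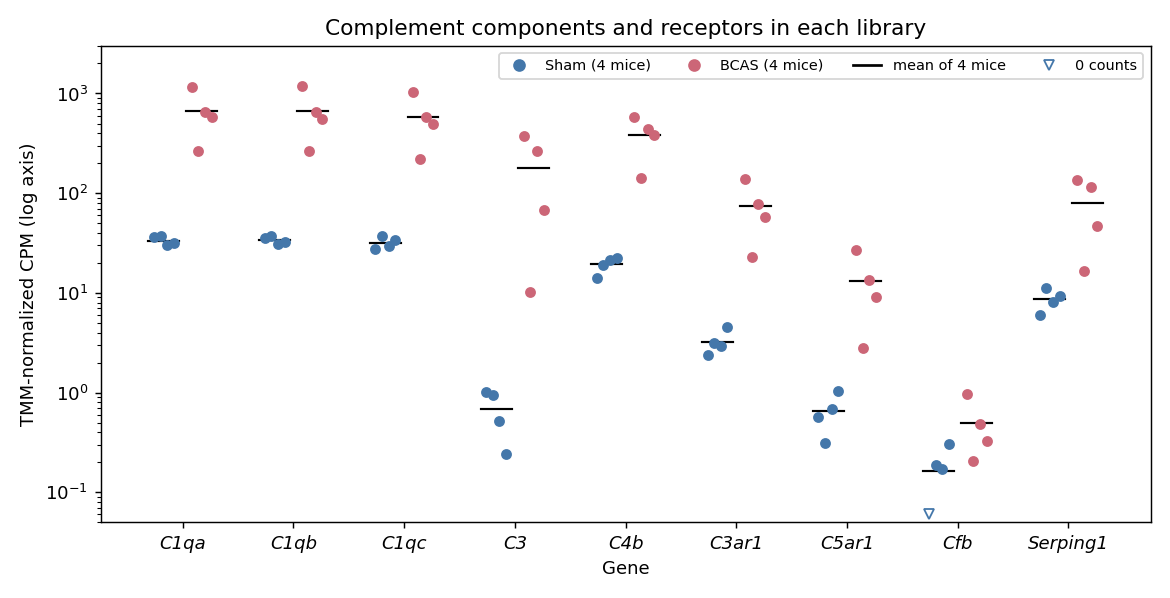
TMM-normalized CPM of the 9 members in each library on a log axis, with blue points for the 4 Sham mice, red points for the 4 BCAS mice in the order of their numbers, black lines for group means and an open triangle for a count of 0, drawn at the foot of the axis. The groups are apart in every gene other than Cfb, and the BCAS points of C3 span a range of 36.9-fold.

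The 3 chains of C1q rose together. C1qa (ENSMUSG00000036887.5, chromosome 4, 136895917 to 136898803) had 36.0, 36.9, 29.9 and 31.4 CPM in Sham mice 1 to 4 and 1172, 264, 652 and 577 CPM in BCAS mice 1 to 4. The Sham mice lay close to each other, while the lowest BCAS mouse was 7.15 times the highest Sham mouse. The log2 fold change was 4.31 ± 0.41 (standard error, SE, with an edgeR adjusted p of 0.00146). C1qb (ENSMUSG00000036905.8, chromosome 4, 136880129 to 136886187) had 35.8, 37.1, 30.9 and 32.4 CPM in Sham mice and 1191, 266, 654 and 549 CPM in BCAS mice. Its mice ranked as for C1qa in both groups, and its log2 fold change was 4.29 ± 0.42 (SE, edgeR adjusted p = 0.00146). C1qc (ENSMUSG00000036896.5, chromosome 4, 136889804 to 136893065) had 27.3, 37.1, 29.7 and 33.7 CPM in Sham mice and 1027, 221, 582 and 492 CPM in BCAS mice. Again no BCAS mouse reached down to the Sham range, and the log2 fold change was 4.18 ± 0.43 (SE, edgeR adjusted p = 0.00146). The genes lie side by side on the minus strand, and no 150-base window of their transcripts, the length of a read, occurs in a transcript of another gene.

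The proportions of the chains stayed within a narrow range while their level rose. The 3 genes together took 0.00899% to 0.0106% of all counts in the Sham libraries, whereas BCAS mice 1 to 4 had 0.354%, 0.0757%, 0.192% and 0.170%. Per kilobase of exon, the level of C1qa was 1.01 to 1.10 times that of C1qb in the 8 libraries, and that of C1qc was 0.429 to 0.585 times that of C1qb. The log2 ratio of C1qb to C1qa was 0.02 ± 0.03 in Sham and -0.01 ± 0.04 in BCAS mice (SD, n = 4), a difference of -0.03 (exact two-sided permutation test, p = 0.257, adjusted p = 0.336 over 17 ratios). For C1qc to C1qa the ratio differed by -0.14 (exact permutation test, p = 0.229, adjusted p = 0.324), with 0.22 as the SD between Sham mice.

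Promoter sequence was at hand in RefSeq (GRCm38.p6) for 5 members, C1qb, C1qc, C3, C3ar1 and C5ar1, and not for C1qa, C4b, Cfb and Serping1. The 250 bases before the RefSeq start of transcription are shown for C1qb, as 1 of the C1q chains that rose together, and for C3, the member with the largest fold change. Both genes are on the minus strand, C1qb at chr4:136886201-136886450 and C3 at chr17:57228137-57228386, and both sequences are written 5′ to 3′ along the gene, with the C/EBP match of C3 in capitals.
C1qb: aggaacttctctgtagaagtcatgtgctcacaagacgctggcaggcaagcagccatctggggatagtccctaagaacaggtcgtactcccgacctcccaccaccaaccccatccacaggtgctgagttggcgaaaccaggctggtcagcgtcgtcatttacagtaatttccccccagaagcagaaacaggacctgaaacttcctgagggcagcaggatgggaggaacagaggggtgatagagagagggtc
C3: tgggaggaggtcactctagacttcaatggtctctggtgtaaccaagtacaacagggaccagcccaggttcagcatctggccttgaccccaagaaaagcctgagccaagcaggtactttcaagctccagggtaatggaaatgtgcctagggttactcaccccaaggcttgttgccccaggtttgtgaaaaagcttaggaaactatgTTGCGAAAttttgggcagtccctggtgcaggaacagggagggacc
Motifs of 5 factors or factor families were searched on both strands of these windows. TTGCNNAA, for C/EBP, was found at bases -45 to -38 of C3 and in 9.56% of 32851 mouse promoter windows of the same length. GAGGAAGT, for PU.1, was found once, on the other strand at bases -195 to -188 of C1qc, and in 2.44% of all windows. The letters of the ISRE (2.98% of windows), of GAS (TTCNNNGAA, 7.02%) and of NF-kB (0.356%) were in none of the 5 windows. The GENCODE gene of C1qc begins at 136893065, inside its window of 136892915 to 136893164. That of C5ar1 begins at 16259540, inside its window of 16259339 to 16259588. A large part of both windows thus lies within the gene as GENCODE annotates it. A match describes the letters only.

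C4b and C3, the thioester proteins that are deposited on target surfaces, both rose. C4b (ENSMUSG00000073418.4, chromosome 17, 34728380 to 34743882) had 14.1, 19.2, 21.3 and 22.6 CPM in Sham mice and 587, 142, 439 and 381 CPM in BCAS mice. Its highest BCAS mouse was 4.15 times the lowest, the narrowest range of the tested members, and the lowest was 6.26 times the highest Sham mouse. The log2 fold change was 4.33 ± 0.41 (SE, edgeR adjusted p = 0.00146). Its close copy C4a, on the same chromosome, had 24, 8, 21 and 7 counts in Sham and 41, 17, 10 and 26 counts in BCAS mice. The groups overlapped for C4a, and its log2 fold change of 0.41 ± 0.49 (SE) did not pass the test (edgeR adjusted p = 0.54). Of the 150-base windows of C4b transcripts, 7.48% also occur in C4a transcripts, so a small part of the reads of either gene cannot be placed.

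C3 (ENSMUSG00000024164.15, chromosome 17, 57203970 to 57228136), the component on which all pathways meet, was near the limit of counting in Sham mice, with 18, 15, 9 and 4 counts. In BCAS mice 1 to 4 it had 8529, 197, 4942 and 1248 counts. In CPM these were 1.02, 0.936, 0.515 and 0.241 in Sham and 375, 10.1, 267 and 68.0 in BCAS mice. BCAS mouse 2, the lowest, was still 9.92 times the highest Sham mouse, but the BCAS mice spread over 36.9-fold. The log2 fold change was 8.04 ± 1.21 (SE, edgeR adjusted p = 0.00331), and limma-voom, which gave 7.18 with a standard error of 2.96, did not call it (adjusted p = 0.0897). On the log2(CPM + 1) scale, which understates the change of genes with low levels, limma gave 5.83 (adjusted p = 0.00502). Between BCAS mice the SD of log2 CPM was 2.36 for C3 and 0.89 for C4b, against 0.91 and 0.30 between Sham mice.

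Both anaphylatoxin receptors rose. C3ar1 (ENSMUSG00000040552.8, chromosome 6, 122847138 to 122856161), the receptor of C3a, had 2.39, 3.12, 2.92 and 4.59 CPM in Sham mice and 138, 23.0, 77.5 and 57.8 CPM in BCAS mice. Every BCAS mouse was above every Sham mouse by at least 5.01-fold, and the log2 fold change was 4.51 ± 0.53 (SE, edgeR adjusted p = 0.00187). C5ar1 (ENSMUSG00000049130.6, chromosome 7, 16246743 to 16259540), the receptor of C5a, had 10, 5, 12 and 17 counts in Sham and 609, 54, 251 and 167 counts in BCAS mice, or 0.568, 0.312, 0.686 and 1.03 CPM and 26.8, 2.78, 13.6 and 9.10 CPM. The groups did not overlap, with BCAS mouse 2 at 2.71 times Sham mouse 4. Its log2 fold change was 4.32 ± 0.69 (SE, edgeR adjusted p = 0.0041), and limma on log2(CPM + 1) gave 2.78 (adjusted p = 0.00763). The log2 ratio of C3ar1 to C5ar1 was 2.35 ± 0.58 in Sham and 2.64 ± 0.29 in BCAS mice (SD, n = 4), a difference of 0.29 that was not distinguishable from the spread (exact permutation test, p = 0.4, adjusted p = 0.453). Hc, the gene of C5 itself, had 5, 2, 5 and 2 counts in Sham and 14, 12, 10 and 12 counts in BCAS mice and was not tested.

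Serping1 (ENSMUSG00000023224.12, chromosome 2, 84765387 to 84775444), the inhibitor of the classical pathway proteases, had the smallest fold change of the tested members. It had 6.02, 11.3, 8.12 and 9.29 CPM in Sham mice and 137, 16.4, 115 and 47.3 CPM in BCAS mice. BCAS mice 1 and 3 were far above the Sham range, whereas BCAS mouse 2 lay only 1.45-fold above the highest Sham mouse. The log2 fold change was 3.18 ± 0.59 (SE, edgeR adjusted p = 0.00684). The log2 ratio of Serping1 to C4b was -1.16 ± 0.28 in Sham and -2.54 ± 0.60 in BCAS mice (SD, n = 4), lower by 1.37 and without overlap. That difference had the smallest p that 4 against 4 mice allow (exact two-sided permutation test, p = 0.0286), and it was 0.054 when adjusted over the 17 ratios.

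Cfb (ENSMUSG00000090231.10, chromosome 17, 34856374 to 34862518), factor B of the alternative pathway, had 0, 3, 3 and 5 counts in Sham and 22, 4, 9 and 6 counts in BCAS mice. The groups overlapped, since BCAS mouse 2 had 0.206 CPM and Sham mouse 4 had 0.302 CPM, and these counts were too few to be tested. Without the filter on low counts, the log2 fold change was 1.57 ± 0.77 (SE) and did not pass (edgeR adjusted p = 0.212). Of its exon bases, 79.5% are also exon bases of Gm20547, an annotated readthrough gene on the same strand that also covers 42.8% of the neighbouring C2. Gm20547 had 0 counts in all 8 libraries. The recorded counting call had no option for read pairs that fall on more than 1 gene, and such pairs are then left uncounted, so that the level of Cfb in these tables rests on the remaining bases and is a lower limit.

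Per kilobase of exon, the order of the mean levels differed between the groups. In Sham mice C1qa (32.2 ± 3.30 CPM per kb, SD, n = 4) and C1qb (31.3 ± 2.65) differed by less than their spread and were followed by C1qc (16.5 ± 2.25). Serping1 (3.73 ± 0.948) and C4b (3.39 ± 0.653) came next and did not differ beyond their spread, and below them were C3ar1 (0.756 ± 0.219), C5ar1 (0.252 ± 0.115) and C3 (0.132 ± 0.0712). C3 had the lowest mean of the tested members in Sham mice, with a spread that overlapped that of C5ar1. In BCAS mice C1qa (640 ± 362 CPM per kb), C1qb (611 ± 356) and C1qc (301 ± 173) still led, followed by C4b (68.0 ± 32.5), C3 (35.0 ± 33.1), Serping1 (33.9 ± 24.2), C3ar1 (17.2 ± 11.2) and C5ar1 (5.08 ± 3.95). The spread between the BCAS mice was so wide that neighbours in this order overlapped, other than C1qc and C4b. Within a mouse the order was steadier. In each BCAS mouse C1qa lay above C1qb, and C1qc was 0.469 to 0.505 times C1qb. C4b lay above C3 and Serping1, and Serping1 above C3ar1 and C3ar1 above C5ar1, in each BCAS mouse, whereas C3 and Serping1 changed places between mice.

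The BCAS mice kept the same order in every member, with mouse 1 above mouse 3, then mouse 4 and mouse 2, whereas the order of the Sham mice differed between genes. Above the Sham mean, C1qa stood in log2 units at 5.13, 2.98, 4.29 and 4.11 in BCAS mice 1 to 4, and C4b at 4.95, 2.89, 4.53 and 4.32. Those of C3 were 9.24, 4.04, 8.75 and 6.78, and those of Serping1 were 4.01, 0.95, 3.75 and 2.48. For C3 and Serping1, BCAS mouse 3 was thus close to mouse 1 and mouse 4 well below it, whereas for C1qa and C4b mice 3 and 4 were nearly level. As a root-mean-square difference of these log2 values over the 8 libraries, C1qa and C1qb were 0.04 apart, C4b and C3ar1 0.23, C1qa and C4b 0.29, C1qa and Serping1 1.05 and C1qa and C3 2.42. These differences share the same 8 mice and carry no test.

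**Figure D2:**
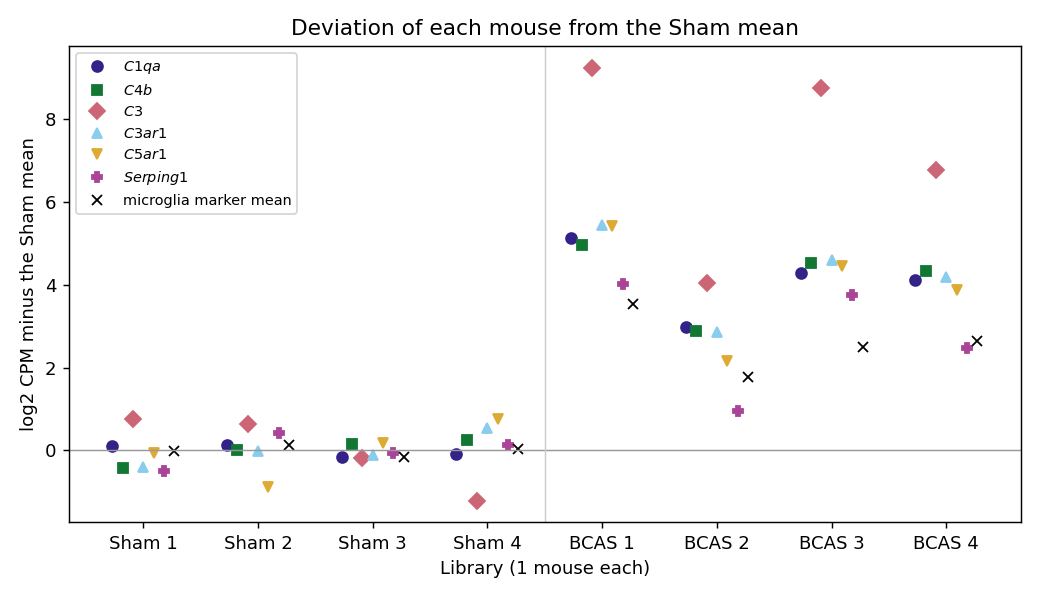
Log2 CPM minus the Sham mean in each of the 8 libraries for 6 members and for the mean of 12 microglial marker genes (crosses). In every BCAS mouse C3 is the highest point, from 4.04 in mouse 2 to 9.24 in mouse 1, and the microglial markers lie under C1qa, C4b, C3ar1, C5ar1 and C3.

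C3 rose by more than the other cascade genes in the fitted values, but the ratios did not pass the adjusted threshold. The log2 ratio of C3 to C1qa was -5.75 ± 0.80 in Sham and -2.68 ± 1.55 in BCAS mice (SD, n = 4), a difference of 3.08 with no overlap (exact two-sided permutation test, p = 0.0286, adjusted p = 0.054). It was smallest in BCAS mouse 2, at 1.06 above the Sham mean, where Sham mouse 1 was at 0.65, and without BCAS mouse 2 the difference was 3.75. The ratio of C3 to C4b differed by 3.03, but BCAS mouse 2 overlapped the Sham mice (exact permutation test, p = 0.0571, adjusted p = 0.0883), and it was 3.66 without that mouse. For C4b to C1qa the difference was 0.05, with an SD of 0.42 between Sham and 0.21 between BCAS mice (exact permutation test, p = 0.971).

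Markers of microglia and of other cells moved with these genes. Over all tested genes, 11.0% were called higher and 1.28% lower. All 12 listed microglial markers, among them the homeostatic receptors P2ry12 and Cx3cr1 and the myeloid growth factor receptor Csf1r, were called higher. Log2 fold changes of these 12 ran from 1.67 for Sall1 to 4.34 for Trem2, beside 4.31 for C1qa, with a median of 2.77. Their summed level was 402 to 492 CPM in Sham and 1579 to 5666 CPM in BCAS mice. The 8 reactive astrocyte markers were also called higher, with a median of 4.05 and sums of 196 to 248 CPM in Sham and 1299 to 5424 CPM in BCAS mice. Of the 8 general astrocyte markers 1 was called higher and 5 passed the adjusted p alone, with a median of 0.50, and of 7 endothelial markers none was called, with a median of 0.39 and 3 past the adjusted p alone. Border macrophage markers were called in 4 of 6 cases, among them Lyve1, whose adjusted p rose to 0.113 in edgeR when single mice were left out, with sums of 16.6 to 20.5 CPM in Sham and 30.6 to 90.9 CPM in BCAS mice. Of 7 monocyte and neutrophil markers 3 were tested and called higher, and the sums over the list were 5.85 to 10.3 CPM and 58.2 to 287 CPM. Csf3r made up most of these sums, with 5.07 to 9.09 CPM in Sham and 54.6 to 205 CPM in BCAS mice. Ly6c2, with 3, 2, 0 and 1 counts in Sham mice, entered the test through the BCAS group alone. Fibroblast markers were called in 5 of 6 cases, with sums of 120 to 151 CPM and 231 to 989 CPM. None of the 7 oligodendrocyte and none of the 5 choroid plexus markers was called. Neuron markers had a median of -0.83, with 6 of 8 lower at the adjusted p alone and 2, Snap25 and Nrgn, called lower. Snap25 lost its adjusted p without Sham mouse 1 or 4 or BCAS mouse 4 (up to 0.0541 with edgeR), and Nrgn without Sham mouse 1, 2 or 4 or BCAS mouse 3 or 4 (up to 0.0727). Plasma protein genes of the liver summed to 0.629 to 7.67 CPM in Sham and 1.18 to 10.7 CPM in BCAS mice. In Sham mouse 1, with the highest Sham sum, Alb at 3.47 CPM and Fgb at 1.59 CPM led. In BCAS mice 1 and 3, Hp at 10.1 and 10 CPM made up most of the sums of 10.7 and 10.4 CPM. Of the 7 genes, Hp was the 1 that was tested. Hp was called higher, but its groups overlapped, and its adjusted p in edgeR passed 0.05, up to 0.0658, without any 1 of the Sham mice or BCAS mouse 3. No marker of these lists was at 0 in all 8 libraries. The part of each of these cell types in the complement values was not tested.

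The 12 microglial markers had log2 fold changes from 1.67 (Sall1) to 4.34 (Trem2). Set against their mean in the same library, most members were higher in BCAS mice, and none of these ratios passed the adjusted threshold. The difference was 1.52 for C1qa (2.86-fold), 1.48 for C1qb, 1.38 for C1qc, 1.56 for C4b (2.95-fold), 1.66 for C3ar1 and 4.59 for C3 (24.1-fold) on the log2 scale. In these 6 genes the 4 BCAS mice lay above the 4 Sham mice (exact permutation test, p = 0.0286, the smallest that the design allows, and 0.054 after adjustment). Without BCAS mouse 2 the difference of C3 was 5.36, and leaving out other mice gave 4.04 to 4.85. For C5ar1 the difference was 1.37, and BCAS mouse 2, at 0.40 above the Sham mean, overlapped Sham mouse 4 at 0.72 (exact permutation test, p = 0.0571, adjusted p = 0.0883). Serping1 changed by 0.19 relative to the markers, with BCAS mice 1 to 4 at 0.48, -0.81, 1.25 and -0.16 around the Sham mean, on both sides of it (exact permutation test, p = 0.714). The SD of C1qa relative to the markers was 0.10 between Sham and 0.24 between BCAS mice, narrower than the 0.88 of C1qa itself between BCAS mice.

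**Figure D3:**
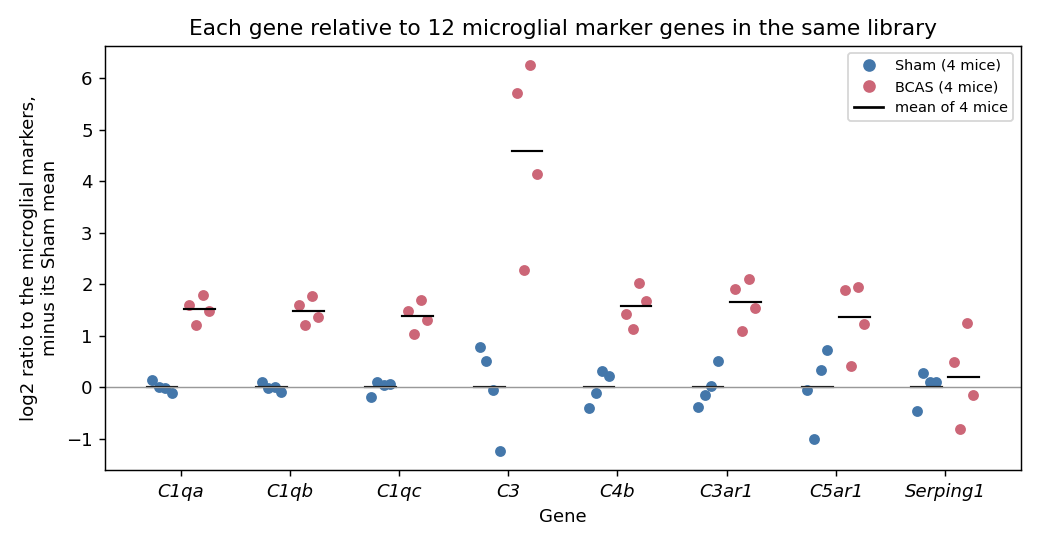
Log2 ratio of each tested member to the mean of 12 microglial marker genes, minus its Sham mean, with blue points for Sham mice, red points for BCAS mice and black lines for group means. The BCAS points of the C1q chains lie between 1.04 and 1.78, those of C3 reach 6.25, and those of Serping1 lie on both sides of 0.

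Of 48 other listed complement genes, 28 had enough counts. At both thresholds 9 were called higher, beside 11.0% of all tested genes, and none was called lower, beside 1.28%. At an adjusted p under 0.05 alone, 12 were higher, beside 19.2% of all tested genes, and 1 was lower, beside 12.8%. Their median log2 fold change was 0.51. In the classical pathway, 3 of 4 tested genes were called higher. C1s1, a protease of the C1 complex, had 1.42, 1.62, 0.744 and 1.27 CPM in Sham and 26.7, 2.63, 18.5 and 5.18 CPM in BCAS mice. It rose by a log2 fold change of 3.39 ± 0.71 (SE, edgeR adjusted p = 0.0105), and 18.4% of its exon bases lie opposite Gm16567. Its partner C1ra had 3.69, 3.18, 0.972 and 3.20 CPM in Sham and 33.1, 2.11, 31.0 and 7.30 CPM in BCAS mice. BCAS mouse 2 was inside the Sham range for C1ra, and the log2 fold change of 2.74 (edgeR adjusted p = 0.031) lost its call without any 1 of the Sham mice, BCAS mouse 1 or BCAS mouse 3, where the adjusted p reached 0.0782. C2, which shares 46.9% of its exon bases with other genes, rose by 2.07 (edgeR adjusted p = 0.0194) and was no longer called without Sham mouse 1 or 4, where the adjusted p reached 0.0592.

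**Figure D4:**
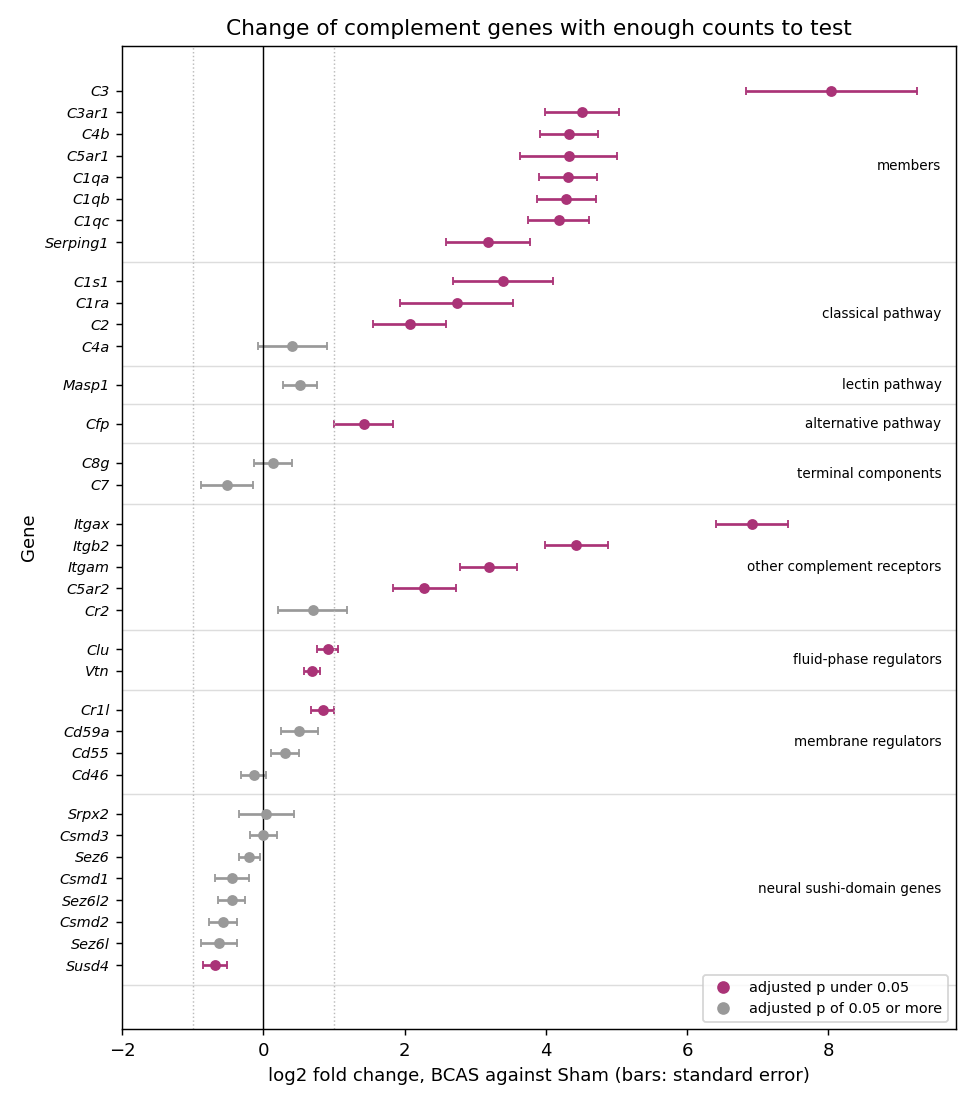
Log2 fold change of BCAS against Sham mice with its standard error for the 8 tested members and 27 of the 28 tested genes of the other complement lists, where purple marks an adjusted p under 0.05, dotted lines the threshold of 1 in either direction, and the sushi-domain list holds brain genes with complement control domains. The members lie between 3.18 and 8.04, the integrin receptor genes Itgax, Itgb2 and Itgam between 3.19 and 6.92, and the membrane regulators and sushi-domain genes between -0.68 and 0.84.

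Of 6 other complement receptor genes 5 were tested and 4 were called higher, beside 11.0% of all tested genes. Vsig4, with 0 counts in Sham and 6, 0, 1 and 0 counts in BCAS mice, was not tested. Itgax, the alpha chain of complement receptor CR4, had 6, 6, 9 and 8 counts in Sham and 1646, 354, 1145 and 1060 counts in BCAS mice. The groups were far apart, and its log2 fold change of 6.92 ± 0.51 (SE, edgeR adjusted p = 0.00126) came next to that of C3 in size. Its Sham counts were all under 10, so it entered the test through the BCAS group alone. Itgb2, the beta chain that CR3 and CR4 share, had a log2 fold change of 4.43 ± 0.45 (SE, edgeR adjusted p = 0.00146), from 6.91 ± 1.17 to 149 ± 93.0 CPM (SD, n = 4). Itgam, the alpha chain of CR3, had 3.19 ± 0.40 (SE, edgeR adjusted p = 0.00203), and 68.7% of its exon bases are shared with Gm49368 on the same strand, so that its level, like that of Cfb, is a lower limit. C5ar2, the second C5a receptor, rose from 1.01 ± 0.265 to 4.94 ± 2.86 CPM, a log2 fold change of 2.28 ± 0.44 (SE, edgeR adjusted p = 0.00757). Cr2, which marks B cells, had a log2 fold change of 0.70 and did not pass (edgeR adjusted p = 0.286).

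Some regulators other than Serping1 passed the adjusted p with log2 fold changes under 1. Clu and Vtn, which block the terminal complex, rose by 0.91 (adjusted p = 0.00456) and 0.69 (adjusted p = 0.00471) in edgeR's test. Clu went from 821 ± 63.3 to 1548 ± 262 CPM (SD, n = 4). Per kilobase of exon its level was 239 ± 18.4 CPM in Sham mice, above that of every other complement gene examined, and 450 ± 76.2 CPM in BCAS mice. Among the membrane regulators, which protect host cells, Cr1l rose by 0.84 ± 0.16 (SE, edgeR adjusted p = 0.00831), while Cd46, Cd55 and Cd59a, at -0.14, 0.30 and 0.51, did not pass. Of 8 brain genes with complement control domains, Susd4 fell by 0.68 on the log2 scale (edgeR adjusted p = 0.0204, up to 0.0594 with 1 mouse left out and lost without Sham mouse 1, 2 or 4 or BCAS mouse 3), and the other 7, between -0.63 and 0.04, did not pass.

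Of the other genes listed for the lectin pathway, the alternative pathway and the terminal components, 1 of 8, 1 of 2 and 2 of 7 were tested. In the lectin pathway only Masp1 of 8 genes was tested, with a log2 fold change of 0.52 that did not pass (edgeR adjusted p = 0.117). Mbl1 and Fcnb, like Cfd, the protease factor D that activates factor B, and Cd55b, had 0 counts in all 8 libraries, which allows up to 0.132 to 0.187 CPM in each. Cfp, properdin, which stabilises the alternative pathway convertase, had a log2 fold change of 1.42 ± 0.42 (SE, edgeR adjusted p = 0.0331). BCAS mouse 2 overlapped the Sham mice for Cfp, and its call was lost without Sham mouse 1, 2, 3 or 4 or BCAS mouse 1 or 3. Of the terminal components, C7 and C8g were tested and did not pass, at -0.52 and 0.13. C6 was untested, with 0 counts in the 4 Sham mice and 79, 1, 55 and 12 counts in BCAS mice, so that against 3 counts per Sham library its mean was at least 10.1-fold higher, and BCAS mouse 2 had no more than that level.

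None of the 8 listed genes that carry a C1q domain outside complement was called higher, and genes with this domain outside the list were not examined. Of the 8 C1q-like and cerebellin genes, which encode synaptic organisers, 7 were tested, 1 fell and 6 did not pass. Cbln2 had 54.6, 47.7, 24.4 and 50.9 CPM in Sham and 15.3, 18.5, 19.8 and 22.3 CPM in BCAS mice. The groups did not overlap, which held in this direction for 16.3% of all tested genes, and Cbln2 fell by 1.23 on the log2 scale ± 0.24 (SE, edgeR adjusted p = 0.00803), a decrease called in 1.28% of all tested genes. The other 6 had log2 fold changes from -0.70 to 0.40 and did not pass.

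The genes whose profile over the 8 libraries lay closest to each member were sought by the root-mean-square difference of log2 CPM from the Sham mean. Candidates were the 12430 tested genes, other than members, whose mean count reached 100. Ctss, a lysosomal protease, was the closest to all 3 C1q chains, at 0.11 for C1qa, 0.08 for C1qb and 0.11 for C1qc, and went from 54.6 to 1060 CPM. Itgb2 and Capg followed for C1qa, at 0.12 and 0.14, and Capg and Itgb2 for C1qb, at 0.12 and 0.13. Cd300c2 and Trim30a followed for C1qc, at 0.15 and 0.16. AU020206 was the closest to C4b, at 0.13, and to C3ar1, at 0.18. For C5ar1 they were Hvcn1, Slc11a1 and Oas2, at 0.43 to 0.45. C3 had no neighbour as close, with Lgals3 at 0.64 and Ly9 and Lcn2 both at 0.98. For Serping1 the closest were the collagen gene Col1a1 at 0.17, Adam8 at 0.22 and Lum, a matrix proteoglycan gene, at 0.24. The fibroblast markers Col1a1 and Lum had log2 fold changes of 3.27 and 3.13, beside the 3.18 of Serping1. For Cfb, with few counts, the closest was Stat5a at 0.67.

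When single mice were left out, the 8 tested members stayed past both thresholds in all 8 fits. The log2 fold change lay between 3.91 and 4.59 for C1qa, 7.40 and 8.44 for C3, 4.07 and 4.61 for C4b, 4.03 and 4.82 for C3ar1, 3.70 and 4.67 for C5ar1 and 2.79 and 3.53 for Serping1. The lowest values of C3 and C5ar1 were those without BCAS mouse 1. The highest adjusted p in these fits was 0.0305, for Serping1 (edgeR).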

How the data were processed

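Right cerebral cortex from 8 mice (4 Sham, 4 BCAS) was sequenced as 150-base read pairs, 1 mouse per library, and groups follow the sample labels. Per the labels and methods, the authors trimmed reads with Trim Galore, aligned them to mm10 with HISAT2 and deposited raw counts per gene, without normalization. The table headers name featureCounts 2.0.1 and GENCODE M20 and count pairs without strand, whereas the methods name featureCounts 1.6.3 and RefSeq. Gene names and coordinates were taken from GENCODE M21 by identifier (99.9% of genes matched). The member genes, the gene and marker lists and the tests were chosen with earlier results of these data known.

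Counts were tested in R 4.3.3 with edgeR 4.0.16 (TMM, filterByExpr with a minimum count of 10 and a minimum total of 15, quasi-likelihood F-test, no covariates, Benjamini-Hochberg adjustment over 17136 genes). The standard error (SE) of each log2 fold change follows from its size and the F value. The filter lets a gene pass through 1 group alone, and of the genes called higher, C3, C5ar1, C2, Itgax and the markers Cbr2, Ccr2, Ly6c2, Lcn2 and Hp had fewer than 10 counts in at least 1 Sham library. For ratios, 0.5 was the prior count of log2 CPM, with exact permutation tests over the 70 arrangements of 4 and 4 mice, adjusted over 17 ratios. Alternatives were DESeq2 size factors, library size alone, no filter, 10 or more counts throughout the 8 libraries, the DESeq2 1.42.0 Wald test, limma-voom and limma on log2(CPM + 1) (limma 3.58.1), a replicate block, a prior count of 5, no threshold on the fold change, and each mouse left out. Named were the members, listed complement genes that were called, untested or at 0, the 3 nearest profiles of each member, genes sharing exon bases and C4a. Other listed genes and single markers were named after their values were seen. The values of 1 listed complement gene, which is part of the counts, are not reported here. The procedure was tested on simulated counts. Plots used Python 3.11.15 and matplotlib 3.10.9.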

Additional observations from a re-analysis of the deposited data

Results flagged for a closer look

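In 2 of 52 groups of 4 values, 1 mouse stood apart by Dixon's ratio, the gap to its nearest neighbour over the range of the group (exceeding its 95% critical value). Chance gives such a value in about 1 in 20 groups. For the log2 ratio of C3ar1 to C5ar1 in Sham mice the ratio was 0.906, with Sham mouse 2 at 0.86 above the group mean and the others between -0.33 and -0.22; Sham mouse 2 had 5 counts of C5ar1. For the log2 ratio of C1qc to the microglial markers in Sham mice it was 0.856, with Sham mouse 1 at -0.20 and the others between 0.05 and 0.09.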

How the results depend on the processing

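The calls of C1qa, C1qb, C1qc, C4b, C3ar1, C5ar1 and Serping1 held under every alternative in which they were tested. C3 had a log2 fold change of 7.18 and no call with limma-voom (adjusted p = 0.0897), and with at least 10 counts in every library C3 and C5ar1 could not be tested. On the log2(CPM + 1) scale limma gave 5.83 for C3 and 2.78 for C5ar1. The cause was not tested for limma-voom. Without a threshold on the fold change 5490 genes were called in place of 2097. Leaving out each mouse gave 1644 to 2967 called genes, 8 called members in each case and 6 to 12 other complement genes. The replicate numbers did not pair the mice, since deviations of same-numbered mice correlated at -0.10 to 0.00, and with the replicate number as a block 1809 genes, 8 members and 7 other complement genes were called, C1qa at 4.14 and Serping1 at 2.84 (adjusted p = 0.0368). With a prior count of 5 in place of 0.5, 10 ratios passed at an adjusted p of 0.0486 (exact permutation test): C3 to C1qa at 2.57, Cfb to C3 at -5.92, Serping1 to C4b at -1.39 and, to the microglial markers, C1qa at 1.52, C1qb at 1.49, C1qc at 1.39, C3 at 4.09, C4b at 1.56, C3ar1 at 1.57 and Cfb at -1.82. Other than Cfb to the markers, these ratios had the smallest p that 4 against 4 mice allow with either prior count. Their adjusted p in the exact permutation test fell from 0.054 because Cfb to the markers joined them at that p. Passing thus rests on how many ratios reach that p and reflects no change in the others. Cfb to C3 was -5.51 and Cfb to the markers -0.91 with the prior count of 0.5, and with 0 to 5 counts in Sham mice the values of Cfb depend on it. With 1 mouse left out, 35 arrangements remain and no ratio can pass after adjustment; the difference of C3 to the microglial markers then lay between 4.04 and 5.36. Cfb and 20 of the 48 other complement genes, C6 among them, had too few counts to be tested.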
